A study of Mus musculus with 9 samples.

Results

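The 36 collagen genes described here were those of 12393 genes on the array whose symbol is Col, a number, the letter a and a number, taken from probe sets that name 1 gene alone. They were read by 58 of 20380 such probe sets, 17 genes by 1 probe set, 16 by 2 and 3 by 3. By class, 9 were fibrillar, 6 were basement membrane collagens and 21 were others. A further 8 collagens of the same naming had no score here, namely Col24a1, Col27a1, Col6a4, Col6a5, Col6a6, Col8a2, Col23a1 and Col28a1. RNA came from whole skin (30 mg) of mice aged 30 days on a mixed C57BL/DBA/FVB background, in pools of L60, L84 and LA transgenic mice (n = 2 pools each) and LC control mice (n = 3 pools), 1 array to each pool. The series title names constitutively active Akt, a kinase downstream of growth factor receptors, together with ectodermal defects and BMP signalling. The labels do not say which promoter drives the transgene, how the lines differ, or how many mice were pooled, so p-values measure only the spread between pools. Every probe set was deposited as a standardised score with mean 0 and SD 1 over the 9 arrays, so all differences below are in SDs, with no level or fold, and levels of different genes cannot be compared.

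Collagens are secreted proteins of 3 chains wound into a triple helix. In skin, fibrillar collagens made mainly by dermal fibroblasts give the dermis its tensile strength, while network-forming type IV collagen builds the basement membranes under the epidermis and around vessels, muscle and fat cells. Collagen XVII of the hemidesmosome, a product of basal keratinocytes, and collagen VII of the anchoring fibril fasten the epidermis to the dermis. The skin label was compared with markers that the array could read: 9 keratinocyte and 12 fibroblast markers had scores, but a score would not show that a gene is absent. The arrays also differed in ways the groups do not explain. Probe sets for 18S ribosomal RNA averaged 2.09 on L60 1, 0.339 on L84 1 and 1.13 on LC 1, against -0.642 to -0.528 on the other arrays, and the SD of scores over all genes was widest on LA 2 (1.20) and L84 1 (1.13), against 0.675 to 0.836 elsewhere.

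No collagen passed limma's test at an adjusted p under 0.05 in any comparison of a line with LC, of the mean of the lines with LC, or of 2 lines. Those with the smallest adjusted p were Col11a1 in L60 (0.849), Col17a1 in L84 (0.167) and Col4a6 in LA (0.0654). Of all genes, 0% were called in L60 against LC, 0.565% in L84, 1.8% in LA and 0.637% for the mean of the 3 lines, and 0.113% in L84 against L60, 0.629% in LA against L60 and 0.0161% in LA against L84. At an unadjusted p under 0.05, limma without moderation listed 1 of 36 collagens in L60, 4 in L84, 5 in LA and 3 for the mean of the lines, against 4.72%, 12.2%, 20.8% and 13.3% of all genes. Between lines it listed 5 of 36 in L84 against L60, 5 in LA against L60 and 0 in LA against L84, against 8.03%, 16.2% and 10.6% of all genes. With moderated variance the unadjusted counts against LC were 1, 5 and 8, against 3.75%, 12.6% and 26% of all genes, and adjusted calls stayed at 0. The values that follow are therefore measured differences, none of them called. In whole skin, fewer cells of a type and less RNA per cell cannot be told apart.

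By direction, 24 of 36 collagens scored higher than LC in L60, 16 in L84 and 25 in LA, where 54.8%, 50.1% and 56.1% of all genes did. The median difference over the collagens was 0.300 in L60, -0.0783 in L84 and 0.523 in LA, beside 0.0777, 0.00308 and 0.247 over all genes. The L84 count moved with single arrays: without L84 1, 27 of 36 collagens (75%) scored higher than LC, against 48.7% of all genes, and without L84 2, 9 (25%) did, against 49.2%. Both arrays of a line lay above all 3 LC arrays for 5 collagens in L60, 5 in L84 and 11 in LA, against 14.4%, 13.8% and 27.8% of all genes. Both lay below all LC arrays for 3, 7 and 7 collagens, against 10.8%, 14.7% and 21% of all genes. Counting both sides, 8 collagens lay apart from LC in L60, 12 in L84 and 18 in LA, against 25.1%, 28.5% and 48.8% of all genes. These counts of arrays apart are close to the shares over all genes.

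**Figure D1:**
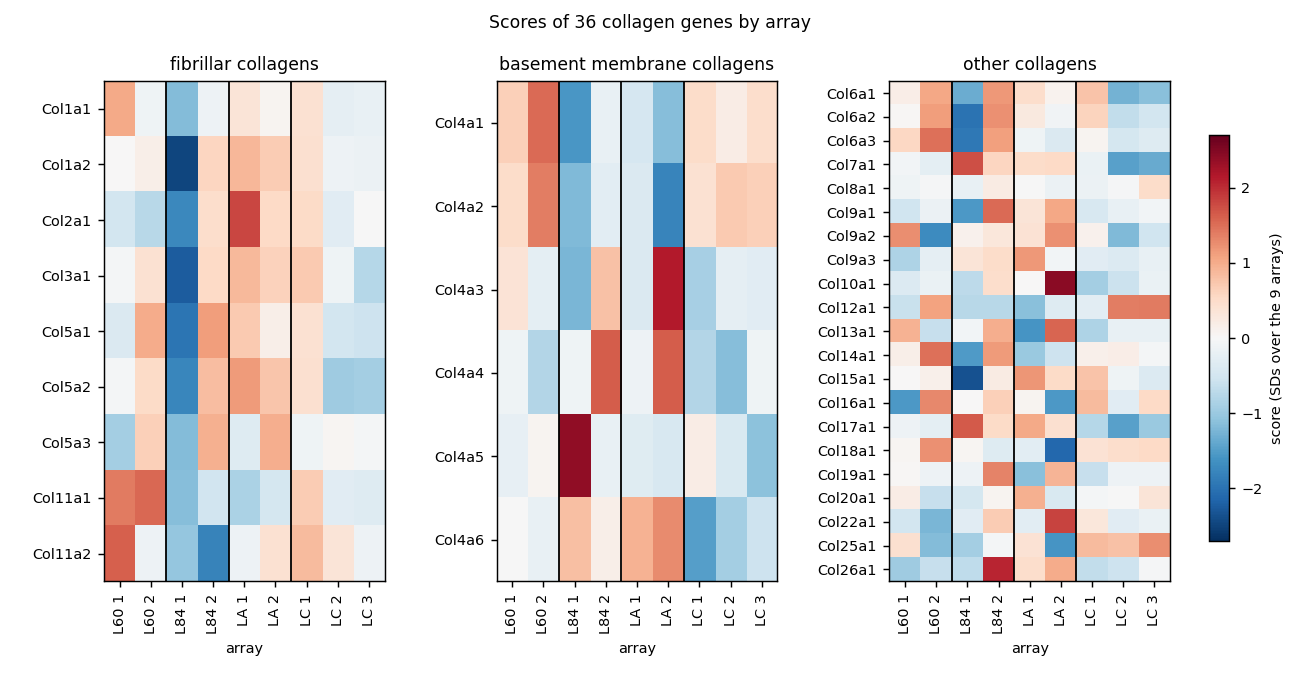
Score of each of the 36 collagen genes (rows, by class) on each of the 9 arrays (columns, lines left of LC), in SDs over the arrays, red above 0 and blue below. The L84 1 column is blue in every fibrillar row, while Col7a1 and Col17a1 are red there.

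The fibrillar collagens set the L84 arrays apart from each other more than they set the lines apart from LC. Their class mean was 0.302 ± 0.0934 in L60, -0.703 ± 1.32 in L84, 0.456 ± 0.0559 in LA (SD, n = 2 arrays each) and -0.0362 ± 0.451 in LC (SD, n = 3 arrays). On single arrays it was 0.235 and 0.368 in L60, -1.64 and 0.233 in L84, 0.495 and 0.416 in LA, and 0.481, -0.24 and -0.35 in LC. All but L84 1 lay between -0.35 and 0.495, so the L60, L84 2 and LA 2 values fell inside the range of the LC arrays and LA 1 just above it. L84 1 was the lowest array for 8 of 9 fibrillar collagens (88.9%) and 17 of all 36 (47.2%), against 21.5% of all genes. L84 2 exceeded L84 1 in 8 of 9 fibrillar collagens and in 80.6% of all collagens, against 46.5% of all genes. The exception in both counts was Col11a2, a minor fibril chain, which was lowest on L84 2.

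As counts, 7 of 9 fibrillar collagens scored higher than LC in L60, 1 of 9 in L84 and 7 of 9 in LA, with median differences of 0.375, -0.690 and 0.647. The L60 count also moved with single arrays: without L60 2, 4 of 9 were higher, with a median of -0.00874, and without LC 3, 5 of 9, with a median of 0.127. The LA count ranged from 6 to 8 of 9 when single arrays were left out. Without L84 1, 6 of 9 were higher in L84 and the class mean difference was 0.269 in place of -0.667. Among arrays high in 18S (L60 1, L84 1 and LC 1) the class mean difference was -0.246 in L60 and -2.12 in L84. Among the other 6 arrays it was 0.662 in L60, 0.528 in L84 and 0.750 in LA. The sign thus differed between the 18S groups for both lines that have an array in each, and the part of RNA amount or quality in it was not tested.

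**Figure D2:**
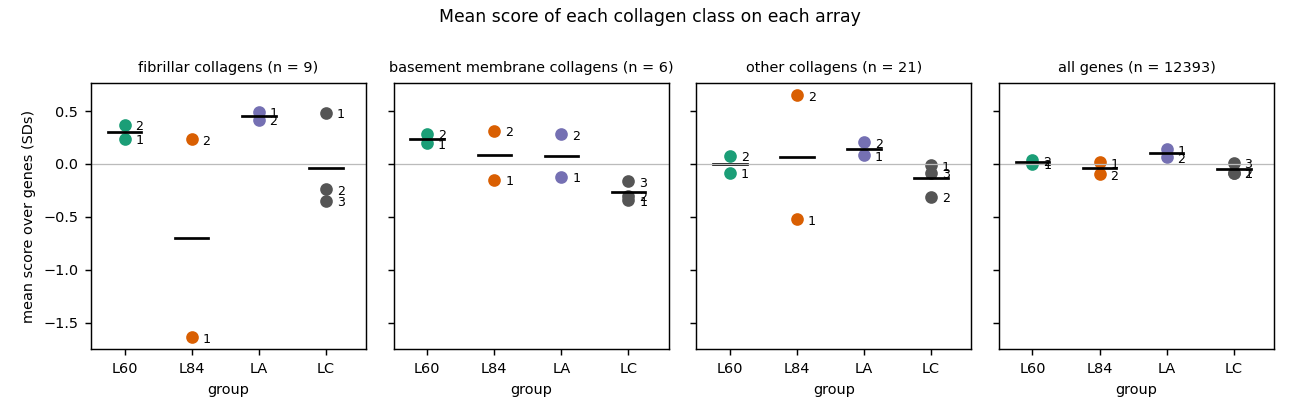
Mean score over the genes of each collagen class on each array (points, numbered by replicate) and the group mean (bar), in SDs, with all 12393 genes at the right. L84 1 lies at -1.64 for the fibrillar class and all other arrays between -0.35 and 0.495, while all genes average near 0 on every array.

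Col1a2, a chain of type I collagen, the main fibril of the dermis, scored 0.0130 and 0.159 on the L60 arrays, -2.47 and 0.572 on the L84 arrays, 0.898 and 0.687 on the LA arrays and 0.436, -0.131 and -0.160 on the LC arrays. Col3a1, the chain of type III collagen that mixes with type I in supple fibrils, scored -0.0615 and 0.417 in L60, -2.24 and 0.547 in L84, 0.874 and 0.628 in LA and 0.715, -0.108 and -0.765 in LC. Both genes were lowest on L84 1, and their L60 and L84 arrays were not all on one side of LC. The LA arrays lay above every LC array for Col1a2 but not for Col3a1, because of LC 1. In L84 they differed from LC by -0.998 ± 0.903 and -0.796 ± 0.926 (SE; adjusted p = 0.722 and 0.795, limma).

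Over the 9 arrays the scores of Col1a2 and Col3a1 differed by 0.175 on average, the second closest of 630 collagen pairs, whose median was 0.892. The closest pair was Col1a2 and Col15a1, at 0.173. The bases before the start site of Col1a2 and Col3a1 are given because these genes had nearly the same profile, and are from RefSeq (GRCm38.p6), 5′ to 3′ on the gene's strand. They are chr6:4505368-4505617 and chr1:45311288-45311537, both on the + strand, each 250 bases long and ending just before the start site. Capitals mark matches, on either strand, to the TATA motif TATAAA, the CCAAT box (read ATTGG on the other strand), the GC box GGGCGG, the AP-1 motif TGANTCA and the forkhead motif GTAAACA, none of which overlapped here.
Col1a2: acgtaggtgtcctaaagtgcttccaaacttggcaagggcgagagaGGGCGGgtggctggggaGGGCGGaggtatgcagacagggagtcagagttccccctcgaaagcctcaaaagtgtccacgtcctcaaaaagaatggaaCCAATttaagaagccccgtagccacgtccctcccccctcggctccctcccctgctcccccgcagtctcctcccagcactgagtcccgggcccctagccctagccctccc
Col3a1: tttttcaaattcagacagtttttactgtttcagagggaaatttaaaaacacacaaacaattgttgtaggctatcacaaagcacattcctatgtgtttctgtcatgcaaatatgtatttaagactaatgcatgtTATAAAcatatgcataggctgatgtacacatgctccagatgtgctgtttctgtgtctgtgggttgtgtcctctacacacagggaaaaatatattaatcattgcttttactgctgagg
Counted from the first base of the match, Col1a2 held the CCAAT box 109 bases and the GC box 205 and 188 bases before the start, and Col3a1 held the TATA motif 117 bases before it, so they had no motif in common. Among 32851 RefSeq promoters of the same length, the TATA motif was in 12.4%, the CCAAT box in 33.8%, the GC box in 32.7%, the AP-1 motif in 6.75% and the forkhead motif in 3.17%. Of the 36 collagens, 27 matched a promoter in that table.

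Col1a1, the partner chain of type I collagen, was read by 2 probe sets that did not move together. One of them, 1423669_at, scored -0.367 and 0.322 in L60, -2.37 and 0.598 in L84, 1.09 and 0.734 in LA and 0.186, -0.165 and -0.0297 in LC, close to Col1a2. The other, 1455494_at, scored 2.41 and -0.542 in L60, 0.0370 and -0.856 in L84, -0.381 and -0.595 in LA and 0.628, -0.340 and -0.366 in LC. Its highest arrays were L60 1, LC 1 and L84 1, the arrays high in 18S, and the part of RNA amount or quality in it was not tested. The 2 probe sets lay 2.78 apart on L60 1. Their mean, the gene's score, was 1.02 and -0.11 in L60, -1.17 and -0.129 in L84, 0.355 and 0.0696 in LA and 0.407, -0.253 and -0.198 in LC. The L60 difference from LC, 0.472 ± 0.498, turned to -0.0193 when the first probe set was used alone. The place of Col1a1 among the 7 of 9 fibrillar collagens higher in L60 thus rested on 1455494_at. The 2 probe sets of Col1a2 lay at most 0.166 apart on any array. With the 2 probe sets of Col1a1 averaged, Col1a1 and Col1a2 ranked 53rd of 630 pairs, with a mean gap of 0.515.

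**Figure D3:**
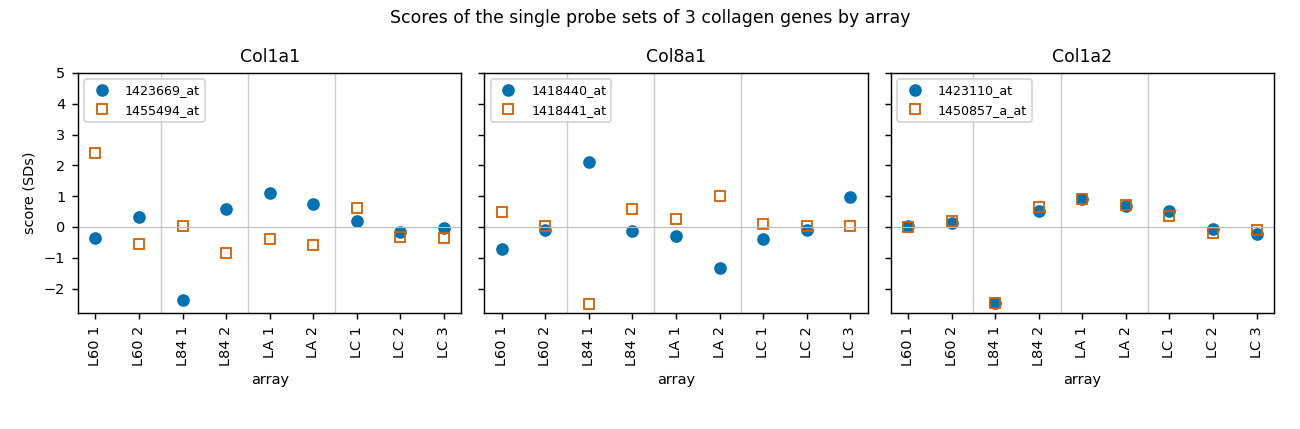
Score of each single probe set of Col1a1, Col8a1 and Col1a2 on each array, in SDs (lines left of LC). The 2 probe sets overlap for Col1a2 but lie 2.78 apart on L60 1 for Col1a1 and 4.63 apart on L84 1 for Col8a1.

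The type V chains, which nucleate collagen fibrils and set their width, split the L84 arrays in the same way. Col5a1 scored -0.389 and 1.01 in L60, -1.98 and 1.13 in L84, 0.717 and 0.152 in LA and 0.408, -0.487 and -0.561 in LC. Col5a2 scored -0.0588 and 0.523 in L60, -1.77 and 0.838 in L84, 1.15 and 0.748 in LA and 0.430, -0.954 and -0.908 in LC. For Col5a2 both LA arrays lay above all LC arrays, a difference of 1.43 ± 0.902, and in L84 the arrays lay on either side of LC with a mean difference of 0.0118. Col5a2 lies beside Col3a1 in the gene table, and their mean gap of 0.283 ranked 7th of 630 pairs. Col5a3 differed from LC by -0.0983 in L60, -0.0669 in L84 and 0.353 in LA, with probe sets up to 2.65 apart.

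Col11a1, a chain of the cartilage-type fibril that is also made outside cartilage, was the collagen with the lowest unadjusted p in L60. It scored 1.41 and 1.55 in L60, -1.14 and -0.508 in L84, -0.859 and -0.474 in LA and 0.683, -0.305 and -0.358 in LC. The L60 arrays lay above every other array, and the L84 and LA arrays lay below all LC arrays. The differences from LC were 1.48 ± 0.403 in L60 (adjusted p = 0.849, limma), -0.832 ± 0.403 in L84 and -0.673 ± 0.403 in LA. Col2a1, the main cartilage fibril chain, scored -0.502 and -0.757 in L60, -1.74 and 0.477 in L84, 1.80 and 0.546 in LA and 0.510, -0.316 and -0.0205 in LC. Here both L60 arrays lay below LC and both LA arrays above it. Col11a2 scored 1.61 and -0.133 in L60, -1.05 and -1.79 in L84, -0.133 and 0.417 in LA and 0.865, 0.354 and -0.133 in LC, with both L84 arrays below LC by a mean of -1.78 ± 0.637. Of 7 cartilage markers, 0 were called in any line, and their list mean ranged from -0.0531 to 0.221 in L60, -0.482 to 0.0276 in L84, -0.151 to 0.700 in LA and -0.131 to -0.0374 in LC. The part of cartilage RNA in these values was not tested.

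The 6 basement membrane collagens are the type IV chains. Their class mean was above every LC array on every array of every line, but only narrowly, and the chains did not move as one. The class mean was 0.240 ± 0.0645 in L60, 0.083 ± 0.33 in L84, 0.0792 ± 0.287 in LA (SD, n = 2 arrays each) and -0.268 ± 0.0942 in LC (SD, n = 3 arrays). The 6 arrays of the lines ranged from -0.150 to 0.316 and the 3 LC arrays from -0.343 to -0.163, and the arrays of LA and L84 were further apart than those of L60. L84 1 (-0.150) thus lay just above LC 3 (-0.163), and this order depended on the processing. With array medians set to 0, LA 1 lay below LC 2 and LC 3. With Col15a1 and Col18a1 counted in the class, which averaged -1.15 on L84 1, L84 1 lay below every LC array. The class mean difference of 0.347 in LA was 0.145 without LA 2 and 0.550 without LA 1, and that of 0.351 in L84 was 0.118 without L84 2 and 0.584 without L84 1. In L60 all 6 chains scored higher than LC, by 0.227 to 0.885. Without L60 1, L60 2 or LC 2 this was 5 of 6, and Col4a2 was at -0.0952 without L60 2. Of all genes, 54.8%, 50.1% and 56.1% scored higher in L60, L84 and LA. In L84 and LA 4 of 6 scored higher and 2 lower, from -1.32 to 1.54 and from -1.67 to 2.10, with the same 2 chains, Col4a1 and Col4a2, lower in both lines.

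Col4a1 and Col4a2 together make the type IV trimer found in nearly all basement membranes, vessel walls included, and their genes are neighbours. Col4a1 scored 0.650 and 1.53 in L60, -1.56 and -0.208 in L84, -0.444 and -1.16 in LA and 0.505, 0.208 and 0.479 in LC. Col4a2 scored 0.493 and 1.37 in L60, -1.19 and -0.277 in L84, -0.389 and -1.77 in LA and 0.411, 0.717 and 0.636 in LC. All L84 and LA arrays lay below all LC arrays for both genes, and both L60 arrays of Col4a1 lay above them. For Col4a1 this held in the mean of its 2 probe sets. On 1426348_at alone L60 1 lay below LC 3, and L84 2 tied with LC 1. In L84 Col4a1 differed from LC by -1.28 ± 0.518 and Col4a2 by -1.32 ± 0.55 (adjusted p = 0.427 and 0.439, limma). In LA the differences were -1.20 ± 0.518 and -1.67 ± 0.55 (adjusted p = 0.272 and 0.189, limma). Single arrays moved these values: without L84 1 the L84 differences were -0.605 for Col4a1 and -0.864 for Col4a2, without L84 2 that of Col4a1 was -1.96, and without LA 2 the LA difference of Col4a2 was -0.976. Their mean gap over the arrays was 0.243, the 6th smallest of 630 pairs. Of 9 endothelial markers, 0 were called, with list means of 0.266 and 0.0922 in L60, -0.222 and -0.480 in L84, 0.431 and -0.0457 in LA and 0.128, -0.224 and 0.0543 in LC. Of 7 adipocyte markers, 0 were called, with median differences from LC of -0.393 in L60, -1.52 in L84 and -0.984 in LA. The part of vessel or fat content in the Col4a1 and Col4a2 values was not tested.

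Col4a6 and Col4a5 form a further trimer of the epidermal and smooth muscle basement membranes. Col4a6 scored -0.00508 and -0.204 in L60, 0.812 and 0.151 in L84, 0.935 and 1.28 in LA and -1.49, -0.921 and -0.555 in LC. Every array of every line lay above every LC array, and the group means ordered as LA, L84, L60 and LC. LA and L84 did not overlap in the mean of its 2 probe sets, but they did on each probe set alone, and on one of them LC 3 tied with L60 2. Col4a6 was not called between any 2 lines. The difference from LC was 0.885 ± 0.353 in L60, 1.47 ± 0.353 in L84 and 2.10 ± 0.353 in LA (adjusted p = 1, 0.228 and 0.0654, limma), and 1.48 ± 0.273 for the mean of the lines (adjusted p = 0.127). Under the alternatives tried the LA difference stayed between 0.0654 and 0.255 in adjusted p. Col4a5 scored -0.213 and 0.0745 in L60, 2.39 and -0.197 in L84, -0.321 and -0.427 in LA and 0.205, -0.408 and -1.11 in LC. It overlapped LC in every line, and its L84 difference of 1.54 ± 0.843 rested on L84 1, without which it was 0.240. Of 7 smooth muscle and pericyte markers, 0 were called against LC, with median differences of 0.00877 in L60, -0.596 in L84 and 1.09 in LA. Between lines, Tagln was called lower in L84 than in L60 (adjusted p = 0.0482, limma), where 0.113% of all genes were called. The neighbouring genes Col4a5 and Col4a6 had a mean gap of 0.905, ranked 338th of 630 pairs.

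Col4a3 and Col4a4, chains best known from kidney, scored highest on LA 2 and L84 2. Col4a3 scored 0.369 and -0.255 in L60, -1.23 and 0.787 in L84, -0.385 and 2.14 in LA and -0.887, -0.241 and -0.301 in LC. Col4a4 scored -0.126 and -0.801 in L60, -0.126 and 1.64 in L84, -0.138 and 1.63 in LA and -0.801, -1.15 and -0.126 in LC. No line lay wholly above or below LC for either gene, and the equal values of Col4a4 on several arrays are ties in the deposited scores.

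**Figure D4:**
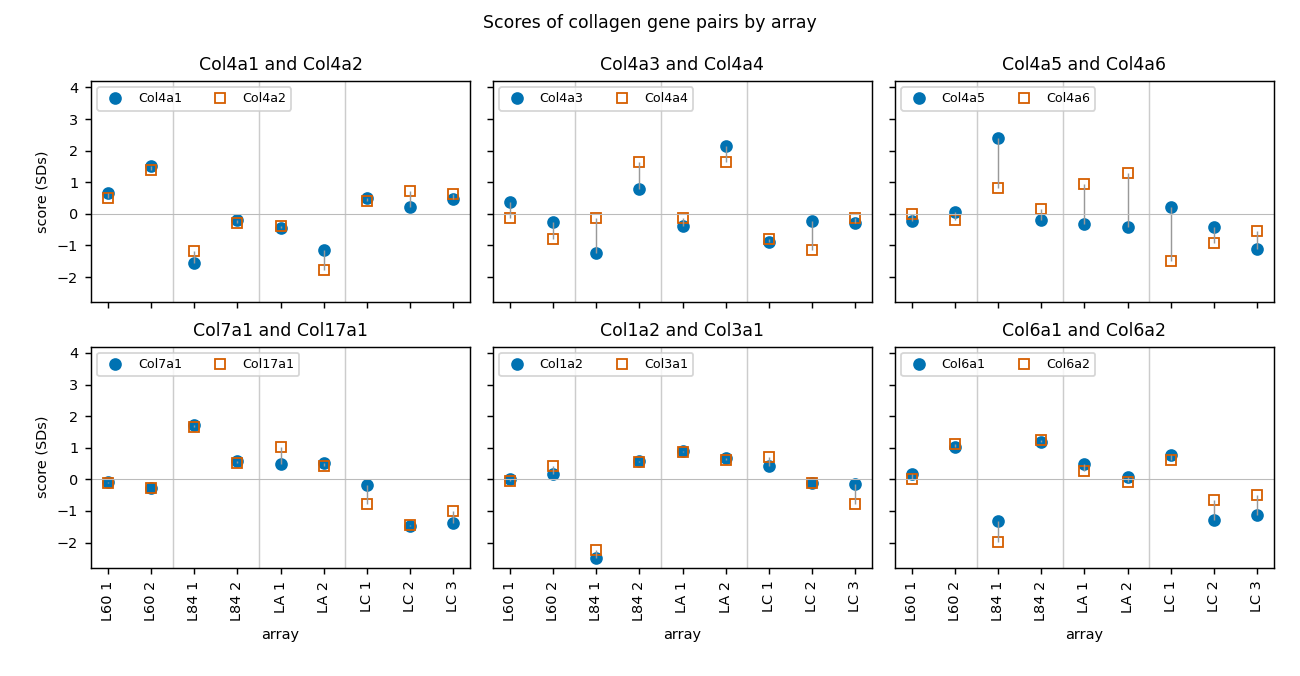
Scores of 6 pairs of collagen genes on each array, in SDs (lines left of LC), with a line joining the 2 genes of a pair. Col4a1 with Col4a2, Col7a1 with Col17a1, Col1a2 with Col3a1 and Col6a1 with Col6a2 lie close together on nearly all arrays, at mean gaps of 0.175 to 0.308, and Col4a5 with Col4a6 do not, at 0.905.

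Among the other collagens, Col17a1 and Col7a1 of the junction between epidermis and dermis gave the 2 largest differences in L84. In L60 Col25a1, Col6a3 and Col6a1 differed more. In LA Col17a1 differed most, but Col10a1, Col18a1, Col25a1 and Col12a1 differed more than Col7a1. Col17a1, the transmembrane collagen of the hemidesmosome, scored -0.131 and -0.270 in L60, 1.65 and 0.521 in L84, 1.02 and 0.423 in LA and -0.764, -1.46 and -0.991 in LC. Col7a1, the anchoring fibril chain, scored -0.0825 and -0.258 in L60, 1.73 and 0.586 in L84, 0.501 and 0.530 in LA and -0.170, -1.47 and -1.37 in LC. Both genes were highest on L84 1, the array where 8 of 9 fibrillar collagens were lowest. All line arrays lay above all LC arrays for Col17a1, and all but L60 2 did for Col7a1. Col17a1 differed from LC by 0.871 ± 0.424 in L60, 2.16 ± 0.424 in L84 and 1.79 ± 0.424 in LA (adjusted p = 1, 0.167 and 0.114, limma). Col7a1 differed by 0.832 ± 0.534, 2.16 ± 0.534 and 1.52 ± 0.534 (adjusted p = 1, 0.24 and 0.21, limma).

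Krt5, a basal keratinocyte keratin, was called higher in L84 (2.21 ± 0.244, adjusted p = 0.0487, limma) and LA (1.99 ± 0.244, adjusted p = 0.0359) but not in L60 (1.28 ± 0.244, adjusted p = 0.606). Its scores were -0.0532 and 0.169 in L60, 1.10 and 0.892 in L84, 0.846 and 0.704 in LA and -1.64, -0.880 and -1.13 in LC, in the same order of groups as Col17a1. Krt10, a keratin of the differentiating layers, was called in LA (2.11, adjusted p = 0.0418). Of the 9 keratinocyte markers, 0, 1 and 2 were called in L60, L84 and LA, against 0%, 0.565% and 1.8% of all genes. In the same order 6, 6 and 5 scored higher than LC and 3, 3 and 4 lower, down to -1.47, -1.93 and -1.88. The median difference in LA was 0.130. The list mean was 0.508 and -0.222 in L60, 0.751 and 0.0405 in L84, 0.0852 and -0.420 in LA and -0.393, -0.152 and -0.198 in LC. The part of keratinocyte content in the values of Col7a1, Col17a1 and Col4a6 was not tested.

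Col7a1 and Col17a1 lay 0.202 apart on average, the fifth closest of the 630 pairs, though they are not neighbours. Their upstream bases are given for that reason, from chr9:108953336-108953585 (+ strand) and chr19:47692043-47692292 (- strand), with the same capitals and source as above.
Col7a1: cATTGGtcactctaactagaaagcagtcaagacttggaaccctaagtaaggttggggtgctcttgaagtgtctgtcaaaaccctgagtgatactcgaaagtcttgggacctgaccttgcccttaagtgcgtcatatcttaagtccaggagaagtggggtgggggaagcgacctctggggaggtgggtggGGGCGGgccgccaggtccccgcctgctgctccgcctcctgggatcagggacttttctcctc
Col17a1: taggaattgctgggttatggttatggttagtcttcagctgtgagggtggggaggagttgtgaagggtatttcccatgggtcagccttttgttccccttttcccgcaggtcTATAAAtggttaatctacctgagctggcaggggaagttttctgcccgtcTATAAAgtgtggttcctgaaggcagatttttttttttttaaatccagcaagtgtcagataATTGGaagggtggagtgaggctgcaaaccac
Both held the CCAAT box on the other strand, 249 bases before the start in Col7a1 and 31 bases before it in Col17a1. Col7a1 also held the GC box at 61 bases and Col17a1 the TATA motif at 140 and 91 bases. Since 33.8% of all promoters held the CCAAT box, this match is a description only.

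The type VI chains, which form beaded filaments around cells and fibrils, were likewise lowest on L84 1. Col6a1 scored 0.183 and 1.03 in L60, -1.33 and 1.17 in L84, 0.481 and 0.0885 in LA and 0.778, -1.28 and -1.13 in LC. Col6a2 scored 0.0234 and 1.13 in L60, -1.99 and 1.23 in L84, 0.260 and -0.0850 in LA and 0.603, -0.668 and -0.500 in LC. Col6a3 scored 0.562 and 1.49 in L60, -1.92 and 1.11 in L84, -0.106 and -0.396 in LA and 0.0835, -0.483 and -0.338 in LC. The mean of the 3 chains was -1.75 on L84 1 and 1.17 on L84 2, a wider gap than between any 2 group means, and LC 1 lay at 0.488 while LC 2 and LC 3 lay at -0.809 and -0.656. The L60 arrays of Col6a3 lay above all LC arrays, by a mean of 1.27 ± 0.935 (0.808 without L60 2), and Col6a1 differed by 1.15 ± 1.02 in L60 (0.725 without L60 2, 1.81 without LC 1). Neighbours Col6a1 and Col6a2 had a mean gap of 0.308, the 10th smallest.

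The FACIT collagens, which bind to the surface of fibrils, did not share a direction: 3 of 9 scored higher than LC in L60, 5 in L84 and 6 in LA. Col12a1 scored -0.594 and 1.08 in L60, -0.745 and -0.756 in L84, -1.13 and -0.350 in LA and -0.292, 1.38 and 1.40 in LC. It lay below all LC arrays in L84 (-1.58 ± 0.774) and LA (-1.57 ± 0.774), though close to LC 1. Col14a1 scored 0.168 and 1.5 in L60, -1.52 and 1.15 in L84, -0.994 and -0.565 in LA and 0.145, 0.176 and -0.0544 in LC, with only the LA arrays apart from LC. Col22a1, known from tissue junctions such as those of muscle and tendon, scored -0.493 and -1.24 in L60, -0.304 and 0.696 in L84, -0.283 and 1.83 in LA and 0.300, -0.316 and -0.187 in LC. In the mean of its 2 probe sets, the L60 arrays of Col22a1 lay below LC and its other arrays overlapped LC. On each probe set alone, an L60 array tied with an LC array. The remaining FACIT genes, Col9a1, Col9a2, Col9a3, Col16a1, Col19a1 and Col20a1, differed from LC by -0.488 to 0.317 in L60, -0.300 to 0.894 in L84 and -1.10 to 1.35 in LA. Col9a1, Col9a2 and Col9a3, the chains of type IX collagen, lay above all LC arrays on both LA arrays, as 27.8% of all genes did. For Col9a1 and Col9a3 this held in the mean of their probe sets but not on each one. LA 2 scored -1.49 on 1460734_at of Col9a3, below all LC arrays, and LA 1 lay below LC 2 on 1428571_at of Col9a1.

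Col15a1 and Col18a1 are the multiplexins of basement membrane zones, and Col18a1 is the source of endostatin. Col15a1 scored 0.0174 and 0.128 in L60, -2.35 and 0.211 in L84, 1.19 and 0.511 in LA and 0.767, -0.111 and -0.371 in LC, overlapping LC in each line. Col18a1 scored 0.0629 and 1.23 in L60, 0.0528 and -0.340 in L84, -0.280 and -2.12 in LA and 0.389, 0.476 and 0.528 in LC. Both L84 and both LA arrays of Col18a1 lay below LC in the mean of its 2 probe sets, as for Col4a1 and Col4a2. The differences were -0.608 ± 0.639 in L84 and -1.66 ± 0.639 in LA. On 1418237_s_at alone both L84 arrays and LA 1 lay above LC 1 (-0.397). On 1426955_at alone L84 1 (0.407) lay above LC 2 and LC 3. The LA difference was -0.744 without LA 2.

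Col25a1, a transmembrane collagen known from nerve and muscle, was the collagen that lay below LC on all arrays of all lines. It scored 0.429 and -1.16 in L60, -0.921 and -0.0598 in L84, 0.387 and -1.58 in LA and 0.863, 0.789 and 1.26 in LC. The differences were -1.34 ± 0.786, -1.46 ± 0.786 and -1.57 ± 0.786, all with the same LC arrays. Those of L60 and LA moved with single arrays, to -0.541 without L60 2 and -2.13 without L60 1, and to -0.583 without LA 2 and -2.56 without LA 1. Skeletal muscle markers had list means of -1.07 and -0.501 in L60, 1.42 and 0.166 in L84, 0.920 and 0.376 in LA and -0.445, -0.399 and -0.467 in LC, with 0 of 12 called. They lay above LC in L84 and LA and below it in L60, and the part of muscle content in the Col25a1 values was not tested.

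Col10a1, the network chain of growth cartilage, scored -0.374 and -0.175 in L60, -0.702 and 0.470 in L84, 0.0204 and 2.43 in LA and -0.908, -0.588 and -0.175 in LC. Its LA difference of 1.78 ± 0.805 was 0.577 without LA 2. Col8a1, a network chain of vessel walls and other tissues, had scores of -0.199 to 0.502 on every array because its 2 probe sets opposed each other, at 2.12 and -2.52 on L84 1. Col13a1, a transmembrane collagen, differed from LC by 0.557 in L60, 0.864 in L84 and 0.398 in LA, with SE 1.08. Col26a1, whose chain is less well known, scored -0.950 and -0.627 in L60, -0.678 and 2.06 in L84, 0.466 and 1.004 in LA and -0.673, -0.566 and -0.0364 in LC.

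**Figure D5:**
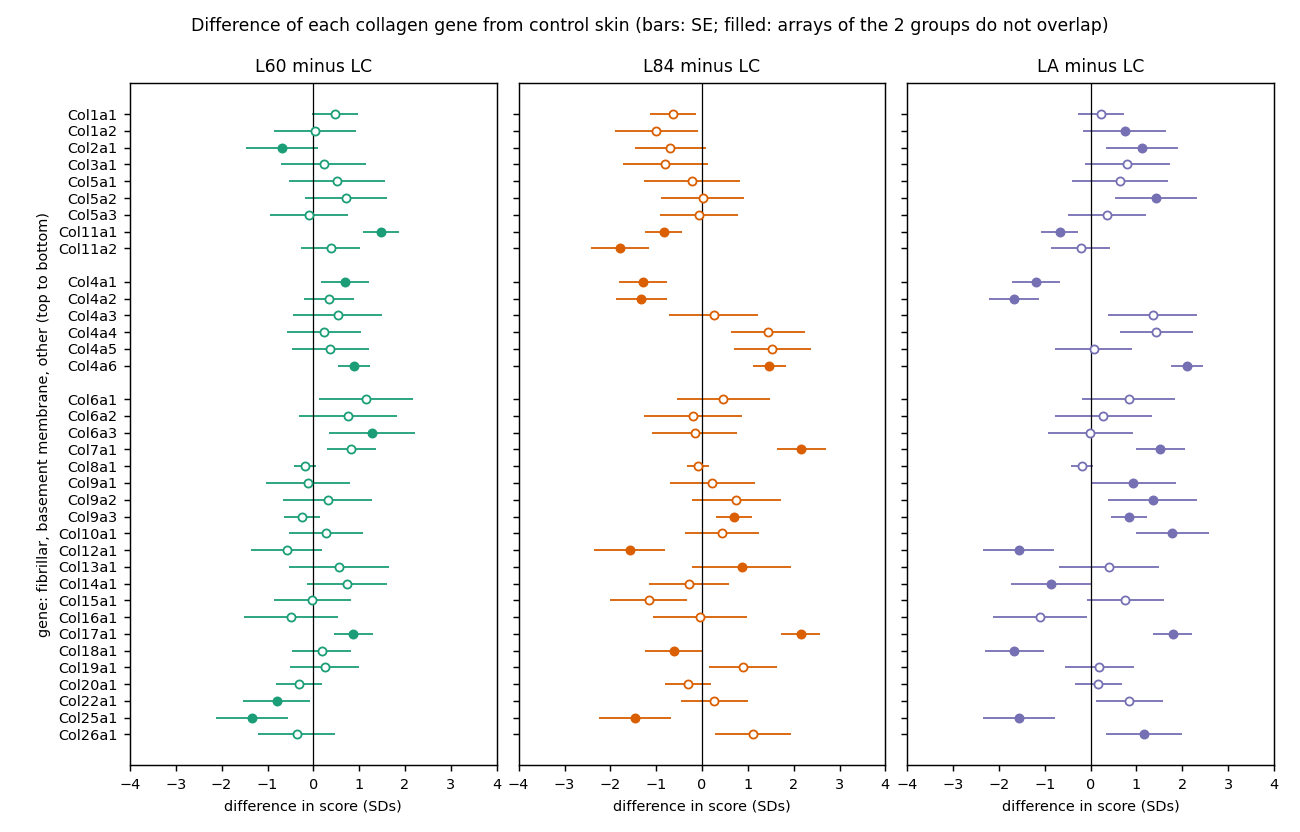
Difference in score of each collagen gene (rows) from LC in L60, L84 and LA, in SDs, with SE from limma as bars. Filled points mark genes whose line arrays do not overlap the LC arrays, 8 of 36 in L60, 12 in L84 and 18 in LA. Of all genes, 25.1%, 28.5% and 48.8% did not overlap in these lines. Col4a6, Col7a1 and Col17a1 lie to the right in every panel, as do Col4a3, Col4a4, Col4a5, Col5a2, Col6a1, Col9a2, Col10a1, Col13a1 and Col19a1. Col25a1 lies to the left in every panel, as do Col8a1, Col12a1 and Col16a1.

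Of the collagen maturation machinery, 1 gene was called, in LA, where 1.8% of all genes were. Among 14 genes of chain modification and secretion, 0 were called in any line. Serpinh1, the collagen chaperone HSP47, scored -0.514 and 0.702 in L60, -2.20 and 1.04 in L84, 0.865 and 0.286 in LA and 0.406, -0.307 and -0.277 in LC, again lowest on L84 1. P4ha1, a prolyl hydroxylase chain, stood 0.789 above LC in L60, 0.958 in L84 and 0.851 in LA (SE 0.476). Plod2, a lysyl hydroxylase, had differences from LC of -0.179, -0.964 and -1.48 in the same order (SE 0.727). None of these 3 passed the test.

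Among 9 genes of propeptide removal and cross-linking, Pcolce2, an enhancer of propeptide cleavage, was called higher in LA (2.45 ± 0.321, adjusted p = 0.0416, limma), and 0 were called in L60 and L84. Of all genes, 0%, 0.565% and 1.8% were called in L60, L84 and LA. Pcolce2 scored -0.363 and -0.0309 in L60, -0.598 and 0.331 in L84, 1.76 and 1.44 in LA and -0.668, -0.806 and -1.06 in LC. All 9 genes lay above all LC arrays on both LA arrays, where 27.8% of all genes did, with a median difference of 1.51. Lox, the lysyl oxidase that cross-links fibrils, differed by 1.61 ± 0.768 in LA (adjusted p = 0.306, limma). Among 11 proteoglycans and glycoproteins of fibrils, Tnxb, a tenascin that binds collagen, was called higher in LA (adjusted p = 0.0236, limma), at 1.73 and 1.34 in LA and -0.849, -1.18 and -0.913 in LC. All 11 scored higher than LC in LA, where 56.1% of all genes did, with a median of 1.39. Dcn, the decorin core protein, was at 1.66 ± 0.808. Fibrillar collagens had a median of 0.647 in LA, and this lower value was not tested against the other lists.

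Of 12 genes of collagen breakdown and its inhibitors, 0 were called. In LA 7 lay above all LC arrays, where 27.8% of all genes did. Their median difference in LA was 1.38, against 0.247 over all genes. Mmp13, a collagenase, scored -0.357 and -0.0420 in L60, 0.330 and 0.732 in L84, 0.939 and 1.40 in LA and -0.141, -1.06 and -1.80 in LC. Timp1, a metalloproteinase inhibitor, had differences from LC of 0.279 in L60, -0.536 in L84 and 0.913 in LA (SE 0.983). Of 5 collagen receptors, 0 were called, and 3, 4 and 5 scored higher than LC in L60, L84 and LA, against 54.8%, 50.1% and 56.1% of all genes.

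Markers of fibroblasts, the cells that make most fibrillar collagen, had list means of -0.218 and 0.738 in L60, -0.685 and 0.595 in L84, 0.749 and 0.0744 in LA and -0.447, -0.521 and -0.285 in LC. Of 12, 10 scored higher than LC in L60, 8 in L84 and 9 in LA. The other 2, 4 and 3 scored lower, down to -0.171, -1.80 and -1.15. S100a4 alone was called, in L84 (1.81, adjusted p = 0.0369, limma) and LA (2.37, adjusted p = 0.0112). Of all genes, 0.565% and 1.8% were called in these lines. Pdgfra, a receptor that marks dermal fibroblasts, scored -0.602 and 1.77 in L60, -1.43 and 0.609 in L84, 0.423 and -0.0550 in LA and -0.494, -0.308 and 0.0847 in LC, and was lowest on L84 1. Macrophage markers had list means of -0.661 and 1.03 in L60, -1.27 and 0.574 in L84, 1.19 and 0.609 in LA and -0.449, -0.494 and -0.527 in LC, with 0 of 7 called. On L84 1 these lists, the fibrillar collagens and the fibril proteoglycans (-1.35) were all lower than on L84 2 (0.668 for the proteoglycans), while muscle and keratinocyte markers were higher. The part of tissue content in the fibrillar values was not tested.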

How the data were processed

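RNA pools from whole skin were read on 9 Affymetrix arrays, 2 each for L60, L84 and LA and 3 for LC. The authors deposited, for 22690 probe sets, a score standardised over the arrays (checked on the values: mean 0 and SD 1 for every probe set), from -2.66 to 2.67. RMA is named per the submitters' processing notes; its version, and the scale before standardising, are not given in the sources used here. Tied values occurred in 44.3% of probe sets. Probe sets that name 1 gene alone in the platform annotation were averaged for each gene. A mean of disagreeing probe sets has a smaller SD. Intensities and background are not used here, so the number of arrays limits the precision.

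Group means were fitted to all 12393 genes over 9 arrays with limma 3.58.1 in R 4.3.3, with 5 residual degrees of freedom and no variance moderation, since standardising fixes each probe set's total variance, so its residual variance depends on how far its groups differ. Benjamini-Hochberg adjusted p under 0.05 counted as a call. The fit was tested on simulated data. Classes were compared by means and counts, without a test. Genes given on every array were a fixed set of skin collagens, any called collagen, and for each line the 3 highest and 3 lowest differences among collagens whose arrays did not overlap LC. Other genes named were called list members and a fixed set of 8. Neighbours come from RefSeq's GRCm38.p6 gene table. The gene pairs outside neighbours were picked after their values were seen. The members and lists were chosen with earlier results of these data known. Alternatives were leaving out each array or pairs of arrays, median scaling, 1 probe set per gene, every probe set alone, replicate number as a block, the 2 groups alone, moderated variance and other class rules. Sensitivity to Col8a1, and the counts with arrays left out, were added after seeing the data.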

Additional observations from a re-analysis of the deposited data

Results flagged for a closer look

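For 3 collagens, both arrays of L60 lay on one side of all LC arrays and both arrays of another line on the opposite side. Col11a1 lay above LC in L60 and below it in L84 and LA, and the differences between lines were -2.31 ± 0.441 for L84 minus L60 (adjusted p = 0.295, limma) and -2.15 ± 0.441 for LA minus L60 (adjusted p = 0.132, limma). In the mean of its 2 probe sets, Col4a1 lay above LC in L60 and below it in L84 and LA. The differences between lines were -1.97 ± 0.568 for L84 minus L60 (adjusted p = 0.474, limma) and -1.89 ± 0.568 for LA minus L60 (adjusted p = 0.228). On 1426348_at alone L60 1 (0.350) lay below LC 3 (0.503), and L84 2 tied with LC 1. Col2a1 lay below LC in L60 and above it in LA, with 1.80 ± 0.853 for LA minus L60 (adjusted p = 0.374, limma). None of these passed limma's test. Of all genes, 1.48% showed such opposite sides for L84 and L60 and 3.91% for LA and L60.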

How the results depend on the processing

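The count of 0 called collagens held under every alternative in every comparison, save that Col1a2 was called in LA against L84 without L84 2 (3.27 ± 0.311, adjusted p = 0.0489, limma). There L84 is the single array L84 1, assumed to vary like the other groups, so leaving out single arrays gave 0 to 1. In L84 against LC, leaving out single arrays gave class mean differences of -1.60 to 0.269 (fibrillar), 0.118 to 0.584 (basement membrane) and -0.387 to 0.784 (other). Without the arrays high in 18S the fibrillar and other classes were at 0.528 and 0.845. Without L84 1 and LA 2 the classes were at 0.269, 0.584 and 0.784. Counting Col15a1 and Col18a1 as basement membrane collagens gave 0.042, and the median over members gave 0.852 for that class in L84 (-0.0936 without L84 2) and 0.709 in LA (0.103 without LA 2).

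Of 992 values for 62 differences of named genes, none called, 54 changed sign, in 20 differences. Leaving out 1 array, the range crossed 0 in L60 for Col1a1 (-0.095 to 1.04), Col1a2 (-0.0664 to 0.232), Col3a1 (-0.126 to 0.614), Col5a1 (-0.175 to 1.22), Col4a2 (-0.0952 to 0.784), Col12a1 (-1.42 to 0.254), Col15a1 (-0.255 to 0.314) and Col18a1 (-0.401 to 0.763). In L84 it did for Col1a2 (-2.52 to 0.524), Col3a1 (-2.19 to 0.599), Col5a1 (-1.77 to 1.34), Col5a2 (-1.29 to 1.32), Col6a1 (-0.790 to 1.72), Col6a2 (-1.80 to 1.42), Col6a3 (-1.68 to 1.35), Col14a1 (-1.61 to 1.06) and Col15a1 (-2.44 to 0.116), and in LA for Col4a5 (-0.272 to 0.384) and Col6a3 (-0.150 to 0.159). Without the arrays high in 18S, the L84 values were 0.096 (Col1a1), 0.718 (Col1a2), 0.983 (Col3a1), 1.65 (Col5a1), 1.81 (Col6a2), 1.52 (Col6a3), 1.09 (Col14a1) and 0.452 (Col15a1), Col15a1 in L60 was 0.369 and Col6a3 in LA 0.159. Without L84 1 and LA 2, the L84 values were 0.524 (Col1a2), 0.599 (Col3a1), 1.34 (Col5a1), 1.42 (Col6a2), 1.35 (Col6a3), 1.06 (Col14a1) and 0.116 (Col15a1), and Col6a3 in LA was 0.140. Median scaling gave -0.0331 (Col1a2, L60) and -0.0695 (Col4a5, LA), and 1 probe set per gene gave -0.0193 (Col1a1, L60). The cause was not tested.

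Replicate numbers were not taken to pair the arrays, since the labels do not say so and not every pair correlated. Deviations of arrays with the same number correlated at -0.0833 (L60 and LA) to 0.345 (L84 and LA). Of 9 arrays, 7 correlated best with their own number, but this count cannot decide whether the arrays were paired. Within a line the deviations of the arrays were equal and opposite. Both numbers thus gave the same correlation between lines, as at 0.115 for L60 and L84, and were counted apart. The last LC array had no array of its own number in any line, so it could not match. With replicate number as a block, 0 collagens were called in each comparison, and signs turned for Col1a2 (-0.0664) and Col3a1 (-0.126) in L60, Col5a2 (-0.203) in L84 and Col4a5 (-0.272) in LA.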
